A study of Mus musculus with 8 samples.

Results

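The genes described here are 10 scaffold genes of the sarcomere, the contractile unit of striated muscle: Ttn, Neb, Myom1, Myom2, Mybpc1, Mybpc2, Myoz1, Tcap, Ldb3 and Myot. They were measured in subcutaneous fat of diabetic mice given niacin-bound chromium (NBC) or a water placebo. All probe sets whose platform annotation names exactly 1 gene, that gene being among the 10, were taken. This gave 23 of the 45037 probe sets other than controls on the array, with 6 for Ttn, 4 for Myom2, 3 each for Mybpc1 and Ldb3, 2 for Myoz1 and 1 for each of the other 5 genes. The 4 NBC mice (numbered 5, 9, 11 and 13) were gavaged with NBC, trivalent chromium bound to niacin and used as a supplement, in water at a dose of 10 mg per kg. The 4 placebo mice (6, 8, 10 and 14) received water alone, on the same schedule of 5 days per week for 10 weeks. All 8 mice were male, 8 weeks old per the labels and diabetic per the series title, and the strain or allele behind the diabetes is not given in the sources used here. An age of 8 weeks is shorter than the 10 weeks of gavage, so it cannot be the age of the mice at the end of that schedule. Total RNA of each mouse's fat was hybridised to 1 Affymetrix Mouse Genome 430 2.0 array, and their small number limits precision throughout. A value is a MAS5 signal, a linear brightness of one probe set as deposited, unless it is called a log2 difference.

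A sarcomere lies between neighbouring Z-discs, where actin thin filaments are anchored by alpha-actinin, and carries the M-band at its centre, where myosin thick filaments are cross-linked. Titin runs from the Z-disc to the M-band and acts as a spring and a template, nebulin runs along the thin filament from the Z-disc, and myosin-binding protein C decorates the thick filament between Z-disc and M-band, so that Neb, Mybpc1 and Mybpc2 are not Z-disc or M-band genes in the strict sense. These proteins belong to striated muscle fibres, several of them come in forms of fast and of slow fibres, and white fat cells do not build sarcomeres.

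In 3 of the 4 NBC mice (5, 11 and 13) the brightest probe sets of 9 of the 10 genes read higher than in every placebo mouse. Among all 45037 probe sets, brightest of their gene or not, 3.76% did so. The 3 mice are grouped here by these same values. In NBC mouse 9 most of the brightest probe sets of the 10 genes lay within the placebo range. Mean signals in NBC mice were 25.5 times those in placebo mice for Mybpc2, the fast form of myosin-binding protein C, 7.48 times for Myom2, the M-protein of the M-band, and 7.30 times for the nebulin gene Neb. The ratios were 3.99 for titin (Ttn), 4.04 for Myoz1 and 4.26 for Tcap, and 1.13 for the brightest probe set of Ldb3, the exception. Placebo means of Mybpc2 (93.9), Myom2 (145), Neb (50.9) and Ttn (251) lay below the filter signal of 275 used here, and no detection calls were used, so the sizes of these ratios are uncertain. No member passed the test over all probe sets. With limma, adjusted by Benjamini-Hochberg over the 22519 probe sets that a filter on dim signals kept, the smallest adjusted p of a member was 0.653. The share of kept probe sets past the adjusted threshold of 0.05 was 0% as well, whereas 1400 of them (6.22%) had an unadjusted p under it.

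Of the 23 probe sets, 11 (of 8 genes) passed the filter, a mean log2 value equal to a signal of 275, and 12 lay below it, among them those that represent Neb and Mybpc1. For 5 of the 11 the placebo mean alone did not reach the filter, so that they entered through their level in NBC mice. Counts are therefore given over all 23 probe sets from the fit without the filter. There, 20 log2 differences (NBC minus placebo) lay above 0 and 3 below, against 49.6% above 0 among all 45037 probe sets. An unadjusted p under 0.05 with a higher level in NBC mice was found for 12 of the 23, against 2.8% of all probe sets, and with a lower level for 0 of the 23, against 2.52%. The groups did not overlap, with NBC higher, for 2 of the 23 (Neb and Myom2), against 1.64% of all, and with NBC lower for 0 of the 23, against 1.7% of all. The median log2 difference was 1.53 over the 23 and -0.0028 over all probe sets, and 1.64 over the 11 kept against -0.010 over all kept. Probe sets of one gene read the same transcripts, and the 10 genes were proposed with results of these arrays known, so these shares describe the genes and are no independent test.

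**Figure D1:**
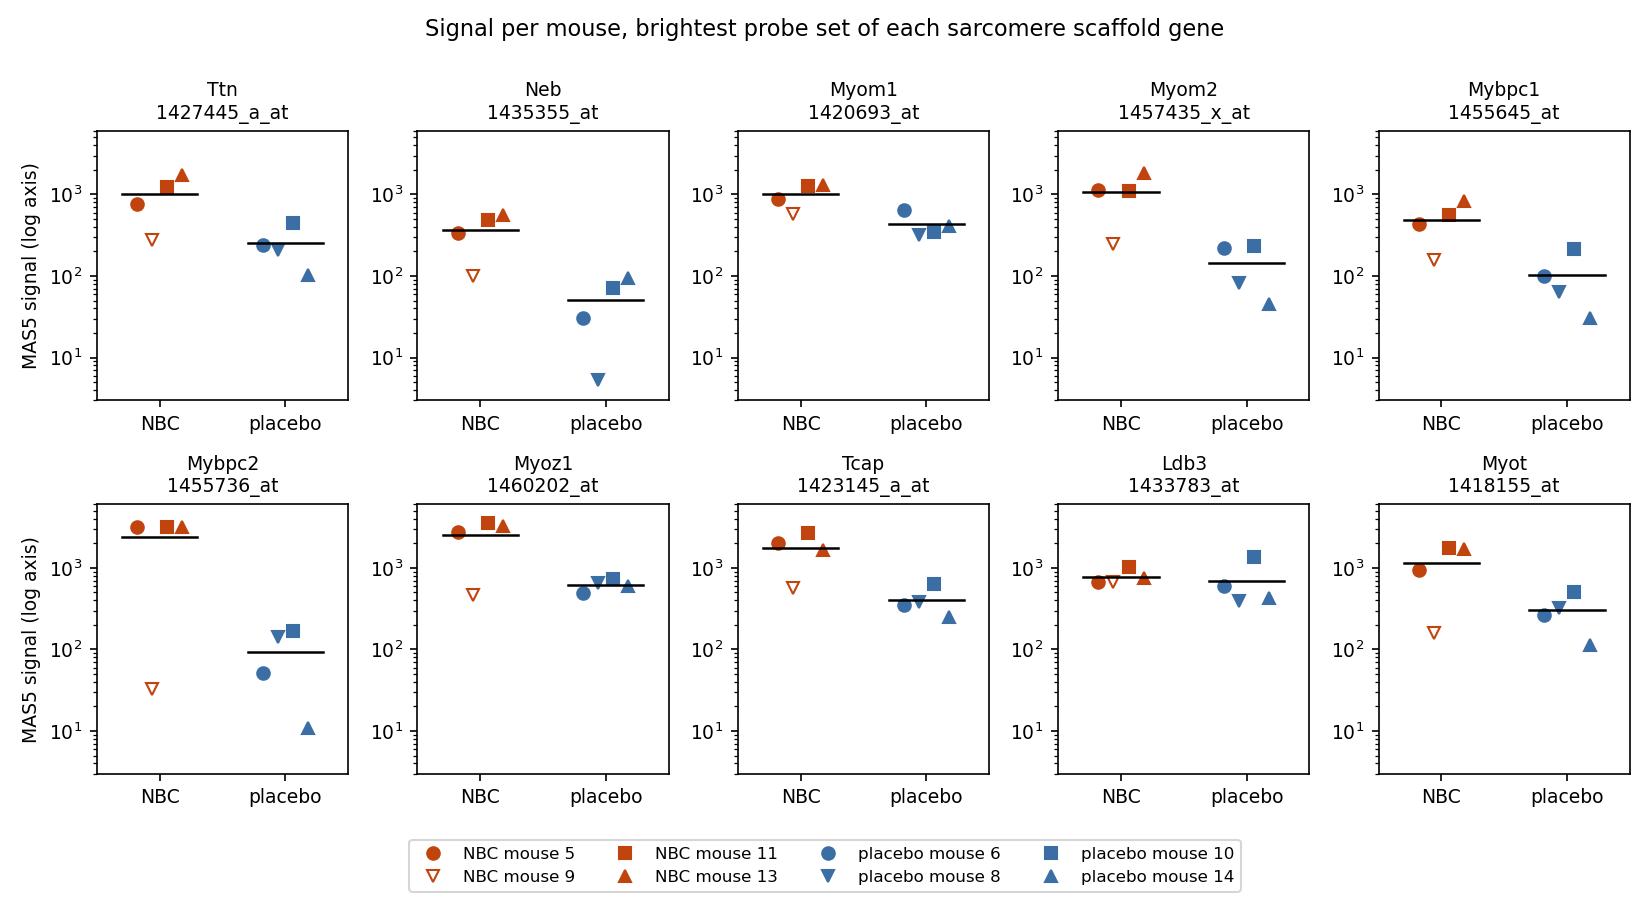
Signal of the brightest probe set of each gene in every mouse on a log axis, NBC mice in red and placebo mice in blue, with a horizontal line at each group mean (n = 4 each) and NBC mouse 9 as the open triangle. NBC mice 5, 11 and 13 lie above all placebo mice in every panel except Ldb3.

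The fat identity of the samples and other tissues were read from marker genes. Adipocyte markers (5 of 6 named on the array by a probe set of their own, among them Adipoq and Fabp4) summed to 427704 to 523642 in NBC and 426337 to 541108 in placebo mice. Markers of fast muscle fibres, 8 of 8 on the array, summed to 70959, 5493, 76471 and 73762 in NBC mice 5, 9, 11 and 13, against 1747, 3872, 8011 and 1465 in placebo mice 6, 8, 10 and 14. These sums were thus high in the same 3 NBC mice, and highest among placebo mice in mouse 10. Myh2 alone did not follow, being dim at 95.6 in NBC and 89.3 in placebo mice (log2 difference 0.094). General fibre markers, 4 of 4 and one of them Ttn itself, summed to 9681 to 53526 in NBC and 2930 to 13694 in placebo mice. Of these, Mb did not separate the 3 mice, with 690 in NBC mouse 13 and 832 in placebo mouse 10. Slow fibre markers (5 of 5) summed to 12399 to 15825 in NBC and 13943 to 14814 in placebo mice, nearly all of it from the calcium pump gene Atp2a2, which other cells express too. The other 4 slow markers averaged 77.1 (Myh7) to 307 (Myl3) in NBC and 97.6 (Tnnt1) to 353 (Myl3) in placebo mice. Muscle precursor markers (5 of 5) summed to 273 to 609 in NBC and 139 to 617 in placebo mice, and heart markers (5 of 5) to 278 to 543 in NBC and 441 to 1177 in placebo mice. Smooth muscle markers (5 of 5) summed to 35102 to 49590.4 in NBC and 33974 to 61868 in placebo mice. Brown adipocyte markers (5 of 5) lay at 2636 to 6740.4 in NBC and 3814 to 7556 in placebo mice, and skin markers (5 of 5) at 1744 to 2639 in NBC and 1816 to 2432 in placebo mice. Within the brown list, Cidea averaged 813 in NBC and 1671 in placebo mice without overlap (log2 difference -0.996, limma adjusted p = 0.653), and Ucp1 1228 in NBC and 3260.3 in placebo mice (-1.39, limma adjusted p = 0.730). Ppargc1a was lower too, with a log2 difference of -0.35. Dio2, below the filter, went the other way, at 357 in NBC and 209 in placebo mice (0.73), as did Elovl3 (0.16). A single Elovl3 value of 2878.5 in NBC mouse 13 made up much of the highest NBC sum of that list. No marker was at 0 in these lists, but the lowest signal of any probe set was 0.4. A value above 0 therefore does not show that a marker was detected. The ratio of the 3′ to the 5′ Gapdh control probe set, a sign of RNA integrity, was 1.47, 0.844, 1.28 and 1.11 in NBC mice 5, 9, 11 and 13 and 0.924 to 1.04 in placebo mice. The same ratio for beta-actin was 2.10, 1.51, 1.82 and 1.56 in those NBC mice and 1.51 to 1.74 in placebo mice, so that NBC mouse 13 lay within the placebo range here. The part of muscle fibres, brown adipocytes or of RNA integrity in the values below was not tested, and in such bulk tissue fewer cells of a type and less RNA per cell cannot be told apart.

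Promoter windows of 5 members were held in the RefSeq table used here (GRCm38.p6), each from 250 bases before to 50 after a transcription start. Those of Mybpc2, Mybpc1 and Ttn are shown because these genes were high in the same 3 mice and include the fast and the slow form of one protein, and that of Ldb3 because its probe sets disagreed. The 4 windows are written 5′ to 3′ on the gene's strand, with matches in capitals to CANNTG (the E-box bound by MyoD-type factors), CATTCC (the MCAT element), TAAAAATA (a MEF2-like word) and the CArG box bound by serum response factor, searched on both strands.
Mybpc2, chr7:44524620-44524919, minus strand: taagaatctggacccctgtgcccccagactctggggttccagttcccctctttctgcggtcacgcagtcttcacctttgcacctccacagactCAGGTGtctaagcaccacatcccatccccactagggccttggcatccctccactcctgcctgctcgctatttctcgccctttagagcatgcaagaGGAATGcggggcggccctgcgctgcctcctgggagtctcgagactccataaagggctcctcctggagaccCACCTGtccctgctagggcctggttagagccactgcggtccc
Mybpc1, chr10:88605103-88605402, minus strand: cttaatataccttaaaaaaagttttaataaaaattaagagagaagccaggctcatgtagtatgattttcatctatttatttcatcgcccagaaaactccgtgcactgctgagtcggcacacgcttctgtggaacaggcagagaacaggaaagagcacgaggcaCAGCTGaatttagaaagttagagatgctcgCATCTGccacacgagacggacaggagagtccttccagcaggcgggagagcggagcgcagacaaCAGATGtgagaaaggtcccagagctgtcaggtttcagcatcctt
Ttn, chr2:76982498-76982797, minus strand: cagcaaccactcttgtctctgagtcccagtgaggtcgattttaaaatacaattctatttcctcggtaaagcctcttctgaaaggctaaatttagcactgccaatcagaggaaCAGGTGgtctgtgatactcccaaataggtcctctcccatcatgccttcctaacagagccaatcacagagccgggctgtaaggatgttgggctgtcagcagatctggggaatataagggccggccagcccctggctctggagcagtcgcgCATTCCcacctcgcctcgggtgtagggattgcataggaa
Ldb3, chr14:34588632-34588931, minus strand: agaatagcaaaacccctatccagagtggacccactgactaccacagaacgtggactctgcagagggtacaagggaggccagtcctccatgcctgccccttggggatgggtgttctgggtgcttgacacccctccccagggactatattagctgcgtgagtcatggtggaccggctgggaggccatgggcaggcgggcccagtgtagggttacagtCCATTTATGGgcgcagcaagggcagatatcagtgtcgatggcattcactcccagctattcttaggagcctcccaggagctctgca

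CANNTG occurred in the windows of 4 of the 5 genes, Mybpc2, Mybpc1, Ttn and Myom1, and in 72.3% of all 32851 windows of this length. Its form CAGCTG, which is contained in CANNTG, occurred in Mybpc1 alone and in 16.3% of all windows. CATTCC was present in Mybpc2 and Ttn and in 14.7% of all, with the Mybpc2 match on the opposite strand (GGAATG). The CArG box was present in Ldb3 and Myom1 and in 1.63% of all, as CCATTTATGG in Ldb3 and CCATAAAAGG in Myom1. A second, overlapping Ldb3 window held the same CArG match. TAAAAATA occurred in 0 of the 5 genes' windows and in 2.72% of all. These are matches of letters in short windows and describe no binding.

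Titin and nebulin are the long filament proteins of the sarcomere. The brightest Ttn probe set, 1427445_a_at, read 774, 275, 1232 and 1720.1 in NBC mice 5, 9, 11 and 13, against 241, 209.9, 448.5 and 103 in placebo mice 6, 8, 10 and 14. The 2 groups overlapped, since placebo mouse 10 exceeded NBC mouse 9. The log2 difference was 1.78 (SE 0.56), with an adjusted p of 0.730 in limma's moderated test. The only Neb probe set, 1435355_at, read 340.4, 99.8, 482 and 563 in NBC mice 5, 9, 11 and 13, against 30.9, 5.3, 71.8 and 95.5 in placebo mice 6, 8, 10 and 14. All NBC mice lay above all placebo mice, though mouse 9 stood close to placebo mouse 14. All 4 placebo values and that of NBC mouse 9 were below the filter signal of 275, so the size of the Neb difference depends on the constant of 26 added before the logarithm. It was 2.34 (SE 0.59) with that constant, 3.17 with 1 and 1.55 with 100.

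The 6 Ttn probe sets fell into 2 kinds. 1427446_s_at followed the brightest one, with 348, 98.3, 597 and 1095 in NBC mice 5, 9, 11 and 13, against 105, 104, 165 and 115 in placebo mice 6, 8, 10 and 14 (log2 difference 1.53, SE 0.61). The other 4 did not separate mice 5, 11 and 13 from the placebo mice. Their log2 differences ran from -0.61 (SE 0.34) for 1446450_at to 0.90 (SE 0.62) for 1444083_at, and group means from 93.9 to 298 in NBC and 41.8 to 282 in placebo mice. The mean over all 6 probe sets gave a difference of 0.70. An _s_at suffix marks probe sets that can also read related transcripts, an _a_at suffix those that read several transcripts of one gene, and an _x_at suffix those with some probes shared with other sequences. Which part of the very long titin transcript each probe set reads is not given in the sources used here.

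**Figure D2:**
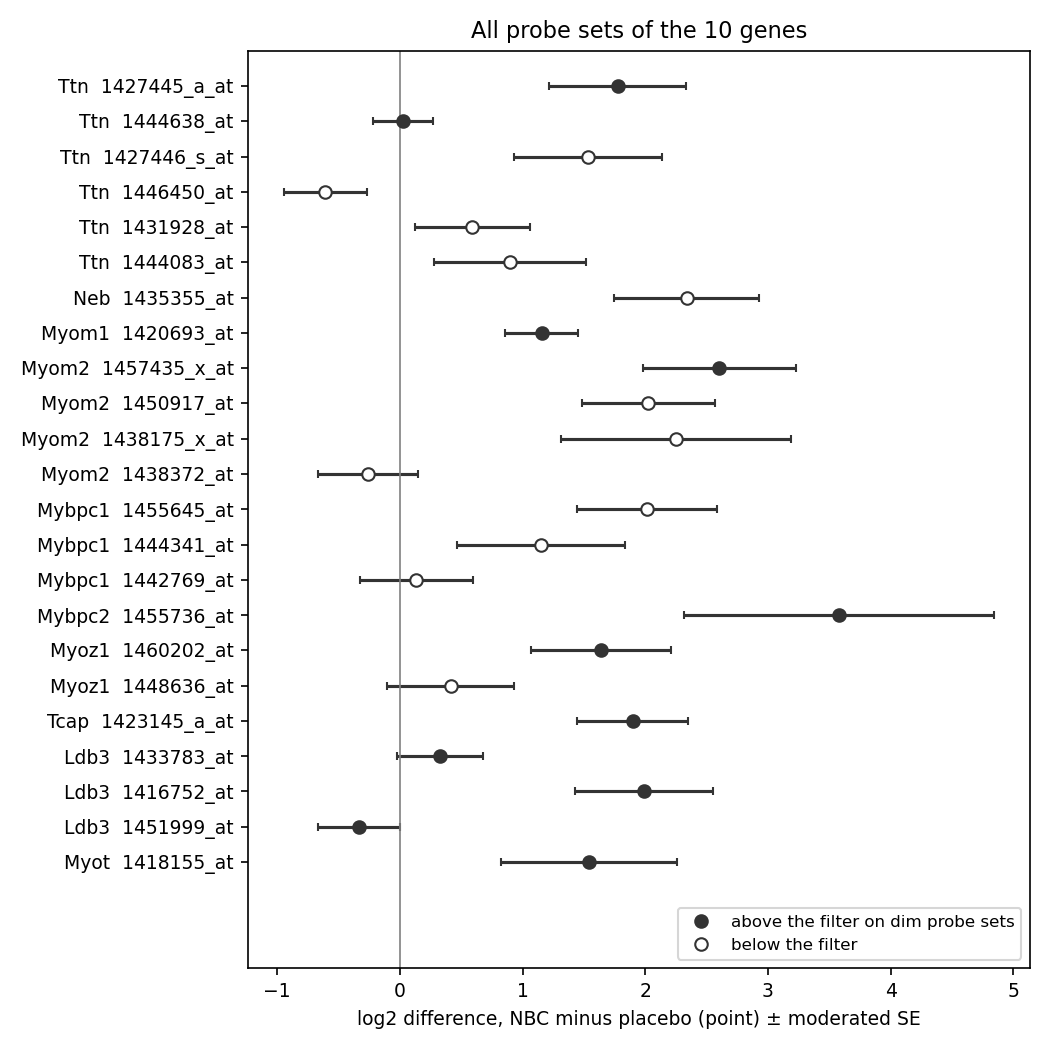
Log2 difference (NBC minus placebo, horizontal axis) with the moderated standard error for each of the 23 probe sets, grouped by gene with the brightest first (filled points passed the filter on dim signals, open points did not). Probe sets of Ttn, Myom2, Mybpc1, Myoz1 and Ldb3 disagree within the gene.

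At the M-band, Myom1 encodes myomesin, which cross-links thick filaments and titin in all striated fibres, and Myom2 encodes M-protein, which is found mainly in fast fibres and heart. Myom1 (1420693_at) read 868, 572, 1261 and 1297 in NBC mice 5, 9, 11 and 13, against 650.2, 316, 345 and 405 in placebo mice 6, 8, 10 and 14. NBC mouse 9 lay below placebo mouse 6 alone. Myom1 had the smallest log2 difference among the 9 genes other than Ldb3, 1.15 (SE 0.30, limma adjusted p = 0.701). Myom2 (1457435_x_at) read 1121, 246, 1118 and 1850.3 in NBC mice, in the same order, against 219, 82.5, 233 and 45.1 in placebo mice. The groups did not overlap, and NBC mouse 9 exceeded placebo mouse 10 by little. The log2 difference was 2.60 (SE 0.62, limma adjusted p = 0.653).

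Of the other 3 Myom2 probe sets, 1450917_at and 1438175_x_at followed, with log2 differences of 2.03 (SE 0.54) and 2.25 (SE 0.94). Both lay below the filter. 1438175_x_at read 842.7, 35.0, 657 and 983 in NBC mice 5, 9, 11 and 13, against 14.9 to 167 among the placebo mice. The fourth, 1438372_at, averaged 57.0 ± 19.8 in NBC and 83.7 ± 60.4 in placebo mice (SD, n = 4 each), with a log2 difference of -0.26 (SE 0.41). The mean over all 4 probe sets differed by 1.65.

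Myosin-binding protein C stabilises the thick filament, and its slow form is encoded by Mybpc1 and its fast form by Mybpc2. Mybpc2 (1455736_at) showed the widest split within the NBC group. It read 3201, 32.5, 3198 and 3140.1 in NBC mice 5, 9, 11 and 13, against 51.2, 144, 169.9 and 10.8 in placebo mice 6, 8, 10 and 14. NBC mice 5, 11 and 13 lay close to each other, the lowest of them 18.5 times as high as the highest placebo mouse, while NBC mouse 9 lay below 3 of the 4 placebo mice. The log2 difference was 3.58 (SE 1.27, limma adjusted p = 0.752), and it was 4.03 with a constant of 1 added before the logarithm and 3.01 with 100. Mybpc1 (1455645_at, below the filter) read 432, 156, 555 and 824.5 in NBC mice in that order, against 99.7, 63.8, 214 and 30.8 in placebo mice. It stood highest in NBC mouse 13, and NBC mouse 9 lay below placebo mouse 10. Its log2 difference was 2.02 (SE 0.57). The other Mybpc1 probe sets, 1444341_at and 1442769_at, gave 1.15 (SE 0.68) and 0.13 (SE 0.46), and the mean over all 3 gave 1.10.

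**Figure D3:**
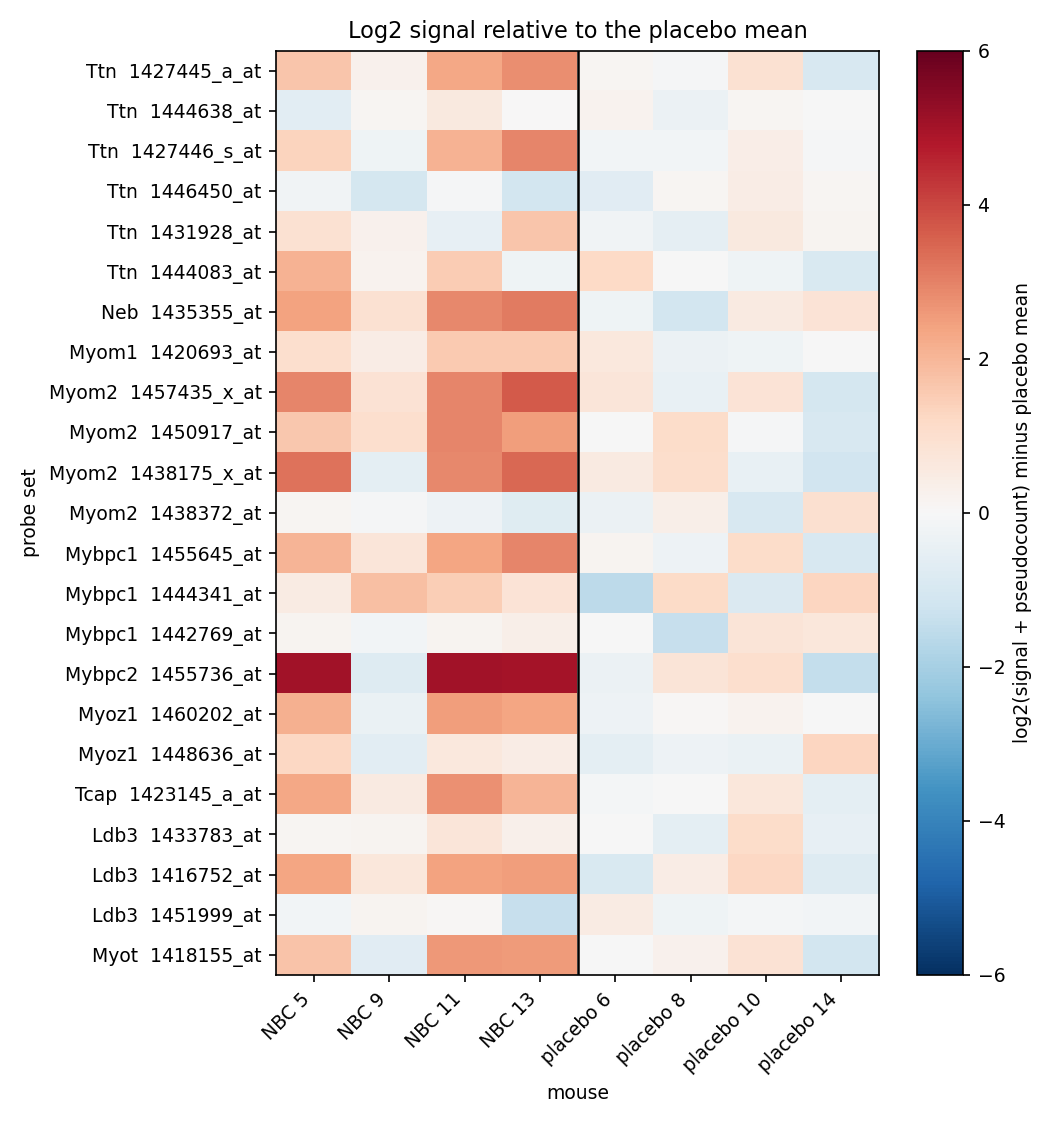
Log2 signal (with the added constant) of each of the 23 probe sets in each mouse, minus the mean of the 4 placebo mice, from blue (lower) to red (higher), with the 4 NBC mice left of the vertical line. For 13 probe sets NBC 5, 11 and 13 are all redder than every placebo mouse, and NBC 9 is paler or blue there.

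The other 4 members belong to the Z-disc. Tcap encodes telethonin, which joins titin ends there. Tcap (1423145_a_at) read 2012, 575, 2720.1 and 1649 in NBC mice 5, 9, 11 and 13, against 352.5, 386, 642 and 253 in placebo mice 6, 8, 10 and 14. NBC mouse 9 lay between placebo mice 8 and 10, and the log2 difference was 1.90 (SE 0.45, limma adjusted p = 0.653). Myoz1 encodes the calsarcin of fast fibres, which ties the phosphatase calcineurin to alpha-actinin. Its brightest probe set, 1460202_at, read 2737, 462, 3558 and 3254 in NBC mice in that order, against 499, 650.1, 722 and 603.5 in placebo mice. The placebo values were the tightest of the 10 genes relative to their mean (619 ± 93.7, SD, n = 4), and NBC mouse 9 lay below all of them. The log2 difference was 1.64 (SE 0.57, limma adjusted p = 0.738). The second Myoz1 probe set, 1448636_at, was dim, with means of 77.5 in NBC and 56.5 in placebo mice (log2 difference 0.41, SE 0.51). Averaged over both Myoz1 probe sets the difference was 1.03.

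Myot encodes myotilin, which binds alpha-actinin and filamin at the Z-disc. Its probe set 1418155_at read 952, 157, 1746 and 1716 in NBC mice 5, 9, 11 and 13, against 268, 325, 508 and 114 in placebo mice 6, 8, 10 and 14. NBC mouse 9 lay below 3 of the 4 placebo mice. The log2 difference was 1.54 (SE 0.72, limma adjusted p = 0.778). Ldb3 encodes a PDZ and LIM domain protein (Cypher or ZASP) that binds alpha-actinin, and its 3 probe sets, all above the filter, gave 3 answers. The brightest, 1433783_at, read 672, 675, 1018 and 759 in NBC mice in that order, against 597, 395, 1349 and 423 in placebo mice. Placebo mouse 10 was the highest of all, and the log2 difference was 0.33 (SE 0.35), or 0.70 without placebo mouse 10 and 0.13 without placebo mouse 8. In contrast, 1416752_at read 1467, 428, 1507 and 1575 in NBC mice, against 124, 365, 651 and 142 in placebo mice, the pattern of the other genes (log2 difference 1.99, SE 0.56). The third, 1451999_at, averaged 298 ± 124 in NBC and 362 ± 102 in placebo mice (SD, n = 4 each; log2 difference -0.34, SE 0.33).

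Genes of fast fibres were set against a related gene within each mouse, to ask whether the 2 differed unequally between groups. The log2 value of Mybpc2 minus that of Mybpc1 was 2.82, -1.63, 2.47 and 1.90 in NBC mice 5, 9, 11 and 13, against -0.70, 0.92, -0.29 and -0.63 in placebo mice 6, 8, 10 and 14. Mice 5, 11 and 13 lay above all others, and mouse 9 below. The group difference was 1.56, with p = 0.200 in a two-sided exact permutation test (0.229 adjusted over the 3 pairs). Myom2 minus Myom1 averaged -0.11 ± 0.74 in NBC and -1.56 ± 0.85 in placebo mice (SD, n = 4 each), a difference of 1.45 with exact permutation p = 0.0571 (adjusted 0.171). Myoz1 minus Myoz2, the calsarcin of slow and cardiac fibres, averaged 3.72 ± 1.93 in NBC and 2.21 ± 0.93 in placebo mice (SD, n = 4 each), a difference of 1.52 with exact permutation p = 0.229 (adjusted 0.229). Myoz2 itself (1418769_at) was dim, at 149 ± 88.6 in NBC and 129 ± 73.3 in placebo mice (SD, n = 4 each), with a log2 difference of 0.12. The smallest p that 4 against 4 allows is 0.0286, and no pair passed. Without NBC mouse 9 the differences were 2.57 for Mybpc2 minus Mybpc1, 1.79 for Myom2 minus Myom1 and 2.39 for Myoz1 minus Myoz2, and in each pair the groups no longer overlapped. The two-sided exact permutation p was then 0.0286 for the first pair, the smallest that 3 against 4 mice allow, and 0.0571 for the others. After adjustment it was 0.0571 for each, so missing the threshold says little here. NBC mouse 9 held the lowest NBC value in each pair, so leaving it out favours separation and these p-values are no independent test. Without NBC mouse 5 the difference of Myoz1 minus Myoz2 was 0.87.

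**Figure D4:**
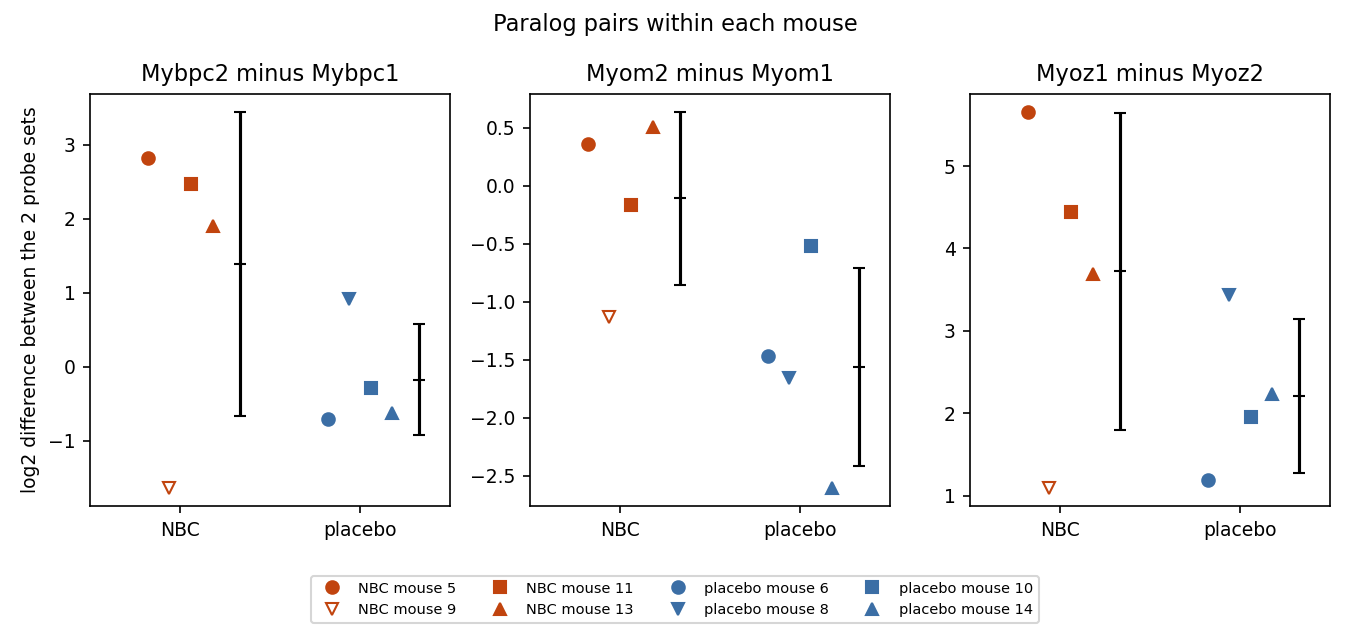
Log2 difference between the probe sets of 2 related genes in each mouse, NBC left of placebo in each panel, with the group mean and SD as a black bar (n = 4 each). NBC mouse 9, the open triangle, lies below the placebo values for Mybpc2 minus Mybpc1 and for Myoz1 minus Myoz2.

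Across the brightest probe sets of the 10 genes, NBC mouse 9 was the lowest NBC mouse for 9 and lay within the placebo range for 7. Placebo mouse 10 was the highest placebo mouse for 8, and exceeded NBC mouse 9 for 7. The highest mouse of all NBC mice was mouse 13 for 5 genes, mouse 11 for 4 and mouse 5 for 1. Without NBC mouse 9 the groups did not overlap, with NBC higher, for 13 of the 23 probe sets, against 3.76% of all probe sets with that mouse left out. Without any one of the other 7 mice this count was 2 to 7, against 2.59% to 3.54% of all probe sets. Both the count and the share were highest without placebo mouse 10. In limma's test on 7 mice without NBC mouse 9, Myoz1 (log2 difference 2.32, SE 0.16, adjusted p = 0.0027) and Mybpc2 (5.02, SE 0.54, adjusted p = 0.0273) passed, as did 0.0799% of the 22519 kept probe sets. Tcap came next, with an adjusted p of 0.058. With no filter, 1 of the 23 passed on those 7 mice, Myoz1 (limma adjusted p = 0.0315), against 0.0244% of all probe sets. Mybpc2, which had entered the filter through its level in NBC mice, missed (limma adjusted p = 0.0964). No member passed when any other mouse was left out. NBC mouse 9 was the lowest NBC mouse for most of these genes, so leaving it out favours a pass.

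**Figure D5:**
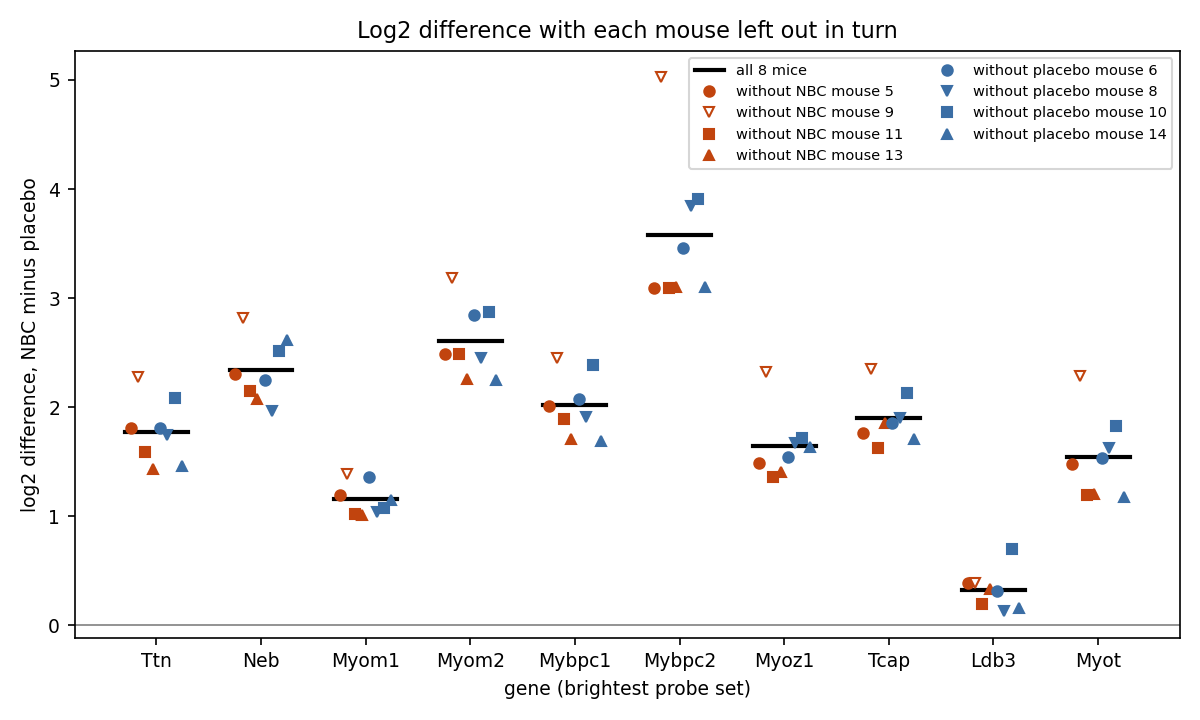
Log2 difference (NBC minus placebo) of the brightest probe set of each gene with all 8 mice (black line) and with each mouse left out in turn (points, red for NBC and blue for placebo mice). All points lie above 0, and the open triangles, without NBC mouse 9, are the highest for every gene except Ldb3.

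Other genes of the same structures were read from a list of 46, of which 43 were named on the array by a probe set of their own and 23 passed the filter. In the fit without the filter, 31 of the 43 log2 differences lay above 0 and 12 below, against 48.5% above 0 among all 18193 named genes, and the median was 0.24. An unadjusted p under 0.05 was found for 11 of the 43 with NBC higher, against 2.23% of the named genes, and for 0 with NBC lower, against 2.03%. The groups did not overlap, with NBC higher, for 4 of them (Klhl41, Smpx, Nrap and Ankrd23, the last named after its values were seen), against 1.61%, and with NBC lower for 0, against 1.93%. None passed the adjusted threshold in limma with or without the filter. Of the 23 kept, Nrap and Tmod4 entered through their level in NBC mice, since their placebo means alone did not reach the filter. The alpha-actinin of fast fibres, Actn3, had the widest difference of the 23 kept (4.03, SE 0.91). It was the only one of them to pass without NBC mouse 9 (limma adjusted p = 0.0092), as did 0.0799% of all kept probe sets. With no filter Actn3 missed without that mouse (limma adjusted p = 0.0583). NBC mouse 9 held its lowest NBC value (574, against 9309 to 10601 in the other NBC mice), so leaving that mouse out favours a pass. Tmod4, which caps thin filaments in skeletal muscle, averaged 541 ± 245 in NBC and 162 ± 62.4 in placebo mice (log2 difference 1.53, SE 0.40). Nrap, a nebulin-related anchoring protein, averaged 577 ± 81.3 in NBC and 281 ± 156 in placebo mice without overlap (1.12, SE 0.35). Des, the intermediate filament around Z-discs (named after its values were seen), averaged 1665 in NBC and 574.5 in placebo mice (1.30). Below the filter, the smallest p-values belonged to Klhl41, a kelch protein of muscle (494 ± 216 in NBC and 80.3 ± 58.9 in placebo mice, 2.32, SE 0.47), Smpx, a small muscle protein (907 ± 513 in NBC and 73.8 ± 70.8 in placebo mice, 3.24, SE 0.76), and Lmod2, which lengthens thin filaments (154 ± 78.5 in NBC and 23.6 ± 22.5 in placebo mice, 1.80, SE 0.47). They were followed by the titin-binding ubiquitin ligase Trim63 (375 ± 206 in NBC and 61.1 ± 69.2 in placebo mice, 2.33, SE 0.68) and the alpha-actinin Actn2 (238 ± 48.8 in NBC and 87.5 ± 96.5 in placebo mice, 1.50, SE 0.47), all SDs with n = 4 each. Some Z-disc genes were bright in the fat of both groups, such as Cryab (32945 in NBC and 34630.1 in placebo mice, -0.070), Synpo2 (22399 in NBC and 25174 in placebo mice, -0.21) and Bag3 (5384 in NBC and 4857 in placebo mice, 0.15), which were picked after their values were seen.

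The genes whose pattern over the 8 arrays was most like the mean standardised pattern of the 8 members kept were Myl1 (Pearson r = 0.976), Mylpf (0.973), Acta1 (0.973), Atp2a1 (0.969), Tnnc2 (0.969) and Ckm (0.960), out of 11631 named genes. The first 3 encode light chains of myosin and skeletal actin, the others a calcium pump, fast troponin C and muscle creatine kinase. The mean standardised pattern was 0.76, -0.52, 1.19 and 1.12 in NBC mice 5, 9, 11 and 13, against -0.54, -0.80, -0.071 and -1.14 in placebo mice 6, 8, 10 and 14. NBC mice 5, 11 and 13 thus stood apart from the other 5 mice, and r describes that split, over arrays that share their RNA between genes. Among the 8 members, Ttn, Myom2, Mybpc2 and Myot entered the filter through their level in NBC mice, so the split is partly built in.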

How the data were processed

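The authors deposited linear MAS5 signals, 1 intensity for each probe set in each mouse (MAS5 per the submitters' processing notes, version not given). Without the lowest and highest 2%, signals averaged 1500.01 on each of the 8 arrays, and no further scaling was applied. Medians of the arrays were 285.5 to 329.6. Arrays were not copies of each other (at most 0.0777% of signals identical in any pair). Scanner and batch are not given. The labels describe mice in separate groups, and groups and mouse numbers were taken from sample titles.

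Genes were taken from the platform annotation, which named 1 gene for 34945, several for 932 and none for 9160, after 64 control probe sets of the 45101 were left out. The 10 symbols matched RefSeq by Entrez identifier. Signals were transformed as log2(signal + 26), 26 being the 10th percentile of all values, which understates the change of dim transcripts. Probe sets with a mean log2 value at or above the median were kept (22519). NBC was compared with placebo with limma 3.58.1 (lmFit, eBayes) in R 4.3.3. P-values were adjusted by Benjamini-Hochberg over all probe sets kept and called under 0.05. Probe sets below the filter carry the fit on all 45037. SEs are moderated, and SDs are of linear signals. The fit was also run on simulated arrays with independent probe sets and equal spread in both groups. Such arrays lack the split of NBC mouse 9 across many genes, so that run does not speak to it. A gene is represented by its probe set with the highest mean log2 value.

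The named genes are all probe sets of the 10 members, the 8 other sarcomere genes with the smallest p (those examples picked later are marked), and the 6 genes most like the members. Members and lists were chosen with earlier results of these data known. Alternatives were another pseudocount, no or a stricter filter, quantile normalization, median scaling, a trended robust prior, array weights, the mean over a gene's probe sets and leaving out each mouse.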

Additional observations from a re-analysis of the deposited data

Results flagged for a closer look

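Among 52 sets of 4 values examined on the log2 scale (the 23 probe sets and 3 pairs of genes in each group), 6 single values lay far from the other 3 of their group by Dixon's test, where chance gives about 1 in 20. The 52 sets share mice, genes and probe sets, so that rate, which holds for a single set, cannot show an excess among the 6. In 4 of them the value was that of NBC mouse 9, below the other NBC mice. Mybpc2 (1455736_at) read 32.5 in NBC mouse 9, against 3140.1 to 3201 in the other 3. Ldb3 (1416752_at) read 428, against 1467 to 1575, Myoz1 (1460202_at) 462, against 2737 to 3558, and Myom2 (1438175_x_at) 35.0, against 657 to 983. In the placebo group, Myoz1 (1448636_at) read 146 in mouse 14, against 20.9 to 31.8 in the other 3, and Ldb3 (1451999_at) read 513.5 in mouse 6, against 294 to 323.5.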

How the results depend on the processing

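For the brightest probe sets of the 10 genes, the log2 difference kept its direction in all 165 values recomputed. The filter settings and the trended robust prior leave a log2 difference unchanged by design, so their values repeat the main one. The adjusted threshold was passed in 2 of the 165, Mybpc2 and Myoz1 without NBC mouse 9. Mybpc2 had entered the filter through its level in NBC mice, and with no filter it missed without that mouse (limma adjusted p = 0.0964). With 1 mouse left out, the number of probe sets past the threshold ranged from 0 to 18 and that of member probe sets from 0 to 2, both highest without NBC mouse 9, and the median of the kept members from 1.36 to 2.28. Over the other alternatives run, both counts stayed at 0 and that median lay between 1.52 and 1.88. Of the 11 kept, 5 entered the filter through their level in NBC mice, so a median above 0 is partly built in. With no filter the median over all 23 was 1.53. With the stricter filter 0 members were kept, so no median could be given. The paralog pair differences stayed above 0 in every setting run, and with 7 mice the adjusted p stayed above the threshold even where the groups did not overlap, so these tests say nothing about stability. Of the 13 other probe sets, 4 changed sign, each with a difference near 0 or a wide error. Ttn 1444638_at gave -0.0058 without NBC mouse 9, -0.16 without NBC mouse 11 and -0.084 without placebo mouse 8, within -0.16 to 0.24 over the mice left out. Myom2 1438372_at gave 0.053 without placebo mouse 14 (-0.58 to 0.053), Mybpc1 1442769_at -0.33 without placebo mouse 8 (-0.33 to 0.39), and Ldb3 1451999_at 0.0092 without NBC mouse 13 (-0.50 to 0.0092). The cause was not tested. No paired analysis was possible because no mouse number occurs in both groups. Signal over background limits the dim members, since 12 of 23 probe sets lay below the filter and no detection calls were used here.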
